A study of Mus musculus with 6 samples.

Results

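The 8 genes described here code for small proteins of the lymphocyte surface: the MS4A family genes Ms4a4b, Ms4a4c and Ms4a6b, the Ly6 family genes Ly6c2, Ly6a and Ly6e, and the single genes Cd52 and Plac8. They are 8 of the 27998 genes listed in each count table and were found by symbol. They were selected on measured values, namely their levels by organ in these libraries and in 2 sets of cells (those with Il2rb transcripts and those with Ccr6 or Il23r transcripts), so levels by organ and by set are a description and no test of them is read. The cells were invariant natural killer T (iNKT) cells, T cells with a nearly fixed receptor that recognises lipids on CD1d. There were 2 libraries for each of 3 organs (liver, spleen, lymph node), and all mice were WT C57BL/6 of 5 weeks with no treatment named. CD8 and B220 positive cells had been depleted, and cells that bound a CD1d tetramer and an antibody to the T cell receptor β chain were sorted and sequenced with a 3′ single-cell method. The labels name the molecule as nuclear RNA and give neither the number of mice behind a library nor whether they were pooled; the 2 libraries of an organ were biological repeats by the study's methods.

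MS4A proteins are relatives of CD20 that span the membrane several times and associate with receptors beside them; Ms4a4b is known in T cells, where it can pair with the costimulatory receptor GITR. Ly6 proteins are small, disulphide-rich domains held at the surface by a glycolipid (GPI) anchor. Ly6c2 codes for Ly-6C, a marker of monocytes and memory T cells, Ly6a for Sca-1, and Ly6e for a protein that acts in the entry of several viruses and belongs to the interferon response. Cd52 is a very short, heavily glycosylated GPI-anchored peptide and the target of the antibody alemtuzumab, and Plac8 is a small cysteine-rich protein of leukocytes and placenta.

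After filtering, 16532 cells of 16587 barcodes remained, with 3572063 to 7066159 counted UMIs (unique molecular identifiers, each marking 1 captured transcript) in a library. The median cell held 3592 and 2880 UMIs in the 2 libraries of liver, 1724 and 1554 in those of spleen, and 1730.5 and 1470.0 in those of lymph node. Any pair of libraries shared 6 to 20 cell barcodes. Xist was found only in the liver and spleen libraries (5425 to 10553 UMIs) and Y-linked transcripts only in the lymph node libraries (1366 and 1584 UMIs), so sex and organ cannot be told apart in any comparison with lymph node. Of 7 iNKT markers listed, the 3 in the tables (Cd3e, Cd3d and Zbtb16) summed to 2645 to 3399.8 CPM (UMIs per 1000000 counted). B cell markers summed to 2.52 to 19.6 CPM and the 2 CD8 markers to 2.47 to 7.08 CPM, hepatocyte markers reached at most 0.553 CPM, and myeloid markers ran from 2.80 to 28.0 CPM except for 120.9 CPM in lymph node replicate 2. Their part in the results was tested only by leaving out cells with such markers.

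The members lie on 4 chromosomes of GRCm38, the build that mm10 names. Ms4a4c (ENSMUSG00000024675, chr19:11404770-11427246), Ms4a4b (ENSMUSG00000056290, chr19:11443553-11467055) and Ms4a6b (ENSMUSG00000024677, chr19:11516512-11531256) stand side by side on the forward strand within 126.5 kb. Ly6e (ENSMUSG00000022587, chr15:74955051-74959905, forward), Ly6a (ENSMUSG00000075602, chr15:74994877-74998031, reverse) and Ly6c2 (ENSMUSG00000022584, chr15:75108158-75111970, reverse) lie within 156.9 kb. Cd52 (ENSMUSG00000000682, chr4:134082448-134095082) and Plac8 (ENSMUSG00000029322, chr5:100553725-100572245) are on the reverse strand. Ly6c2 has a close copy, Ly6c1: of the 401 stretches of 100 bases in the last 500 bases of its transcript, 25 (6.23%) were also in a Ly6c1 transcript, so a part of the Ly6c2 count is uncertain, while the other 7 members shared none with another gene.

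RefSeq promoter windows of GRCm38.p6 were found for 5 of the 8 members. Those of Ms4a4b and Ms4a4c matched each other over 119 bases without a gap, 104 of them identical (87.4%), from base 136 to base 18 before the start of Ms4a4b (chr19:11443422-11443540, forward strand) and from base 133 to base 15 before that of Ms4a4c (chr19:11407528-11407646, forward strand). A start here is that of the RefSeq window and can differ from the gene ends given above. The Ms4a4c stretch lies inside the gene span given above, as do the Ms4a6b window (chr19:11518309-11518558) and a Plac8 window (chr5:100563097-100563346). The stretches of Ms4a4b and Ms4a4c are shown because the transcript levels of these neighbours were the farthest apart within a family. Capitals mark the bases that are the same in both.
Ms4a4b: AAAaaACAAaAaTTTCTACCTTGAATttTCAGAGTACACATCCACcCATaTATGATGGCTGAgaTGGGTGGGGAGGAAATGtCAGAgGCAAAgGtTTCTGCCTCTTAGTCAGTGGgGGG
Ms4a4c: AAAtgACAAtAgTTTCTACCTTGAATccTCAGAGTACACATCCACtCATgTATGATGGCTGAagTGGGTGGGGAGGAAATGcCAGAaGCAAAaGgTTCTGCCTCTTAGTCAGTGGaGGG
In the 250 bases before the start, on both strands, none of the 7 windows of the 5 members held 2 copies of GAAA with 2 bases between them (TTTC on the other strand), the core of an interferon-stimulated response element, which 2.98% of all 32851 windows held. None held the STAT site TTCNNNGAA either, which 7.02% of all windows held. These letters may lie outside the windows.

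Together the members made up 1.08% to 1.74% of the counted UMIs of a library, and Cd52 alone gave 39.2% to 55.5% of those. Once each cell was thinned to 1000 UMIs, a cell held UMIs of 4.07 and 4.50 of the 8 genes on average in liver, against 3.79 and 3.75 for spleen and 3.04 and 2.96 for lymph node. Every liver library was above every spleen library, and every spleen library above both of lymph node. The thinning left out 0 and 9 cells of liver, 144 and 169 of spleen, and 265 and 488 of lymph node.

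Plac8 had the steepest organ gradient of the 8 genes. Its level was 690.3 and 784 CPM in liver, 321 and 257 CPM in spleen, and 69.0 and 68.6 CPM in lymph node. The 3 organs did not overlap. The log2 fold was 1.28 (SE 0.122) for liver against spleen, 3.37 (SE 0.137) for liver against lymph node and 2.09 (SE 0.136) for spleen against lymph node. The share of thinned cells with a Plac8 UMI was 31.5% and 33.8% for liver, 17.9% and 14.5% for spleen, and 3.71% and 2.97% for lymph node, against 61.7% and 58.7%, 27.0% and 21.7%, and 5.76% and 5.13% of unthinned cells. The sort holds no cell type known to lack these genes, so the share that free RNA gives was not measured.

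Ly6c2, which codes for Ly-6C, came next. It stood at 1187 and 1316 CPM in liver, 391 and 360.3 CPM in spleen, and 275 and 238 CPM in lymph node. Again no organ overlapped another, but the step lay between liver and the other organs: the log2 fold was 1.66 (SE 0.123) for liver against spleen and 0.57 (SE 0.124) for spleen against lymph node. Its copy Ly6c1 had 113 and 140 CPM in liver, 74.2 and 62.7 CPM in spleen, and 39.8 and 40.1 CPM in lymph node. Ly6c1 was not used in the choice of the members, but it was listed with earlier results of these data known. It was higher in liver than in spleen (log2 fold 0.81, SE 0.134, adjusted p = 4.13e-05) and in lymph node (log2 fold 1.60, SE 0.143, adjusted p = 6.29e-11, edgeR quasi-likelihood test, adjusted over all genes). The sequence shared with Ly6c2 makes a part of its count uncertain too, so this is no separate test of the organ order.

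Ly6a had 1039 and 1367 CPM in liver, 709 and 670.5 CPM in spleen, and 522 and 426 CPM in lymph node, in the same order with no overlap. Its log2 fold was 0.73 (SE 0.137) between liver and spleen and 1.29 (SE 0.139) between liver and lymph node. Ly6e had 2941 and 3046 CPM in liver, 2031 and 1782 CPM in spleen, and 1917 and 1561 CPM in lymph node. Liver was above both other organs (log2 fold 0.58, SE 0.129, against spleen), while spleen and lymph node overlapped.

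The MS4A genes did not follow the liver-first order. Ms4a4b had 1816 and 2836 CPM in liver, 2579 and 3225 CPM in spleen, and 1391 and 1734 CPM in lymph node. The liver libraries were the farthest apart of any organ for this gene, and liver overlapped spleen. Both spleen libraries and both liver libraries lay above both lymph node libraries (log2 fold 0.92, SE 0.239, for spleen and 0.53, SE 0.238, for liver). The liver folds of Ms4a4b depended on the liver library kept: against lymph node the fold was 0.83 without liver replicate 1 and 0.14 without liver replicate 2, and against spleen it was -0.08 and -0.77. Ms4a6b had 1018 and 1191 CPM in liver, 1179 and 1144 CPM in spleen, and 824 and 858 CPM in lymph node, with liver and spleen overlapping and lymph node below both. Ms4a4c, with its matching promoter stretch, was measured at 18.96 and 23.6 CPM in liver, 17.4 and 17.1 CPM in spleen, and 23.8 and 17.1 CPM in lymph node, from 61 to 143 UMIs in a library. Its organs overlapped in every pair but liver and spleen.

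Cd52 was the most abundant member in every library, on a scale of captured molecules that does not depend on transcript length. It had 6019 and 6820 CPM in liver, 7959 and 8442 CPM in spleen, and 6271 and 5912 CPM in lymph node. Spleen lay above both other organs (log2 fold -0.43, SE 0.132, for liver against spleen), and liver and lymph node overlapped. Thinned to 1000 UMIs, 96.0% to 98.6% of the cells of a library still had a Cd52 UMI.

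**Figure D1:**
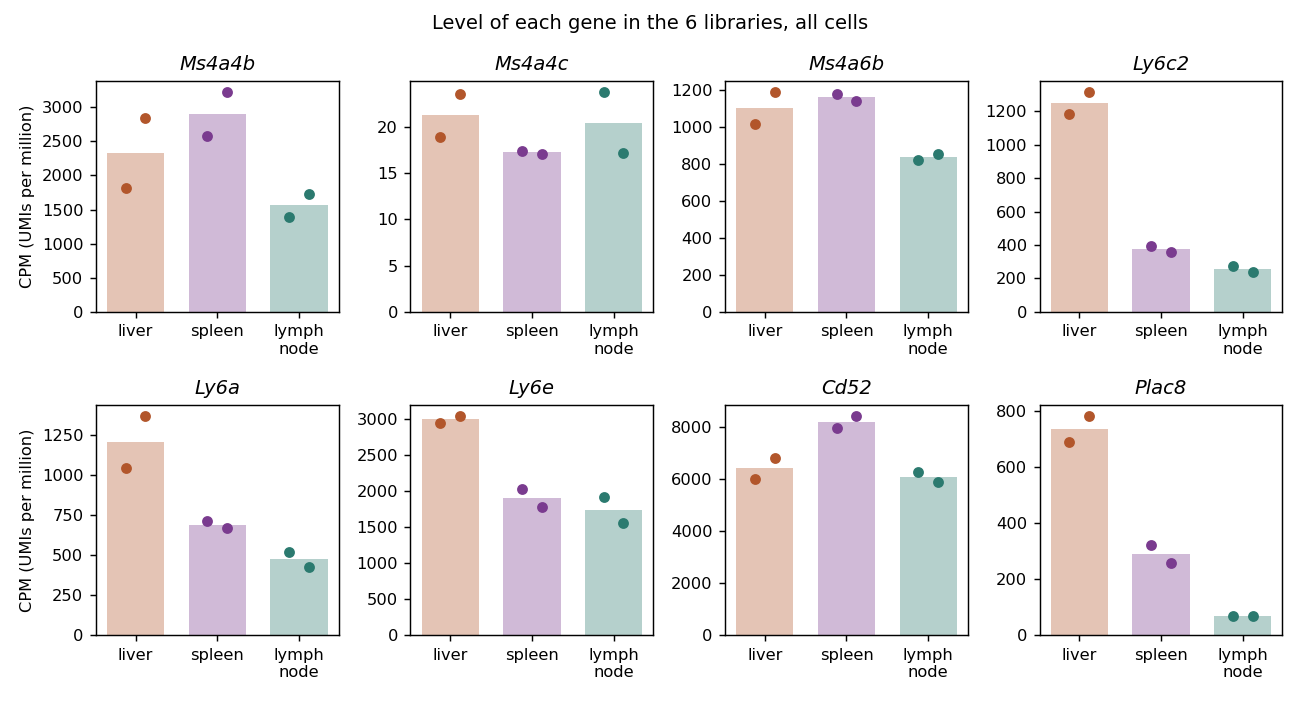
Level of each of the 8 genes (vertical axis, CPM, linear from 0) in liver, spleen and lymph node; each point is 1 library and each bar the mean of the 2 libraries of an organ. Plac8 falls from 690.3 and 784 CPM in liver to 69.0 and 68.6 CPM in lymph node, while Cd52 is highest in spleen.

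Across all genes, 25.7% of 10173 were called for liver against spleen (adjusted p below 0.05, edgeR quasi-likelihood test with Benjamini-Hochberg adjustment), 37.6% for liver against lymph node and 18.3% for spleen against lymph node. Of the 8 members, 4 were called higher and 1 (Cd52) lower in liver than in spleen, 5 were called higher in liver than in lymph node, and 6 were called higher in spleen than in lymph node, but the choice of the members used these contrasts, so nothing is read from the counts. As a description, the folds with each library left out in turn ran from 3.25 to 3.48 for Plac8 and from 2.13 to 2.35 for Ly6c2 between liver and lymph node, and from 0.50 to 0.94 for Ly6a between liver and spleen. The range was wider relative to the fold for Ms4a6b between liver and lymph node, from 0.20 without liver replicate 2 to 0.47 without liver replicate 1. Cd52 ran from -0.54 to -0.31 between liver and spleen, the latter without liver replicate 1, and Ms4a4b from 0.73 to 1.09 between spleen and lymph node.

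The organs differ in their mix of cells. Il2rb, the β chain shared by the IL-2 and IL-15 receptors and a mark of type 1 iNKT cells, gave UMIs in 79.5% and 74.6% of the cells from liver, 31.3% and 23.4% of those from spleen, and 11.8% and 11.4% of those from lymph node. Liver cells were also deeper, and among cells thinned to 1000 UMIs the shares were 39.6% and 40.4%, 18.7% and 15.7%, and 7.21% and 7.29%. Ccr6, a chemokine receptor, or Il23r, the IL-23 receptor chain of type 17 cells, gave UMIs in 370 and 455 lymph node cells (14.0% and 16.0%) but in only 11 to 24 cells of any liver or spleen library. In a sum over all cells, fewer cells of a type and less RNA per cell cannot be told apart, so the members are given in each set.

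Within cells with Il2rb UMIs, Plac8 kept its gradient. It had 699.6 and 787 CPM in liver, 323 and 246 CPM in spleen, and 99.3 and 77.9 CPM in lymph node, the last from 47 and 36 UMIs. The log2 fold for liver against lymph node was 3.00 (SE 0.180) there and 3.37 in all cells. Ly6c2 differed more between the 2 views: it had 1219.5 and 1324 CPM in liver, 416 and 474 CPM in spleen, and 363 and 428 CPM in lymph node. Spleen and lymph node, apart in all cells, overlapped in cells with Il2rb UMIs (log2 fold 0.15, SE 0.145).

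Ly6a and Ly6e kept liver first in cells with Il2rb UMIs, Ly6a at 1033 and 1355 CPM in liver against 492 and 374 CPM in lymph node. Ms4a4b had 1831 and 2800.2 CPM in liver, 2657 and 3476 CPM in spleen, and 1789 and 2306 CPM in lymph node, so that liver and lymph node now overlapped (log2 fold 0.11, SE 0.205). Ms4a6b had 1014 and 1176 CPM in liver and 997 and 930.2 CPM in lymph node, with no overlap but a log2 fold of 0.12 (SE 0.130). Cd52 had 6132 and 6830 CPM in liver, 8362 and 8968 CPM in spleen, and 6886 and 7029 CPM in lymph node.

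The lymph node has enough cells with Ccr6 or Il23r UMIs to set the 2 sets side by side. Plac8 had 8.40 and 12.3 CPM in cells with Ccr6 or Il23r UMIs (5 and 8 UMIs), against 99.3 and 77.9 CPM in cells with Il2rb UMIs. Ly6c2 had 80.6 and 55.4 CPM against 363 and 428 CPM, and Ms4a4b 327 and 406 CPM against 1789 and 2306 CPM. Both sets were apart for each of these genes in both libraries. Ms4a6b (422 and 446 CPM), Cd52 (4356 and 4477 CPM) and Ms4a4c (6.72 and 6.15 CPM, 4 UMIs each) were lower too, and Ly6a was closer, with 329 and 303 CPM against 492 and 374 CPM.

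Ly6e was the one member that went the other way in lymph node. It had 1913 and 1643 CPM in lymph node cells with Ccr6 or Il23r UMIs and 1749 and 1402 CPM in those with Il2rb UMIs, a log2 ratio of Il2rb over Ccr6 or Il23r cells of -0.13 and -0.23. The direction held in both lymph node libraries, also when the 27 and 31 cells with UMIs of both sets were left out (-0.14 and -0.25). The 4 liver and spleen sums of cells with Ccr6 or Il23r UMIs rest on 12, 12, 24 and 11 cells, of which 7, 6, 0 and 1 also had Il2rb UMIs, so their values are shown in the plot of cell sets only; the Ly6e ratio was above 0 in all 4 of them (0.05 to 0.15).

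**Figure D2:**
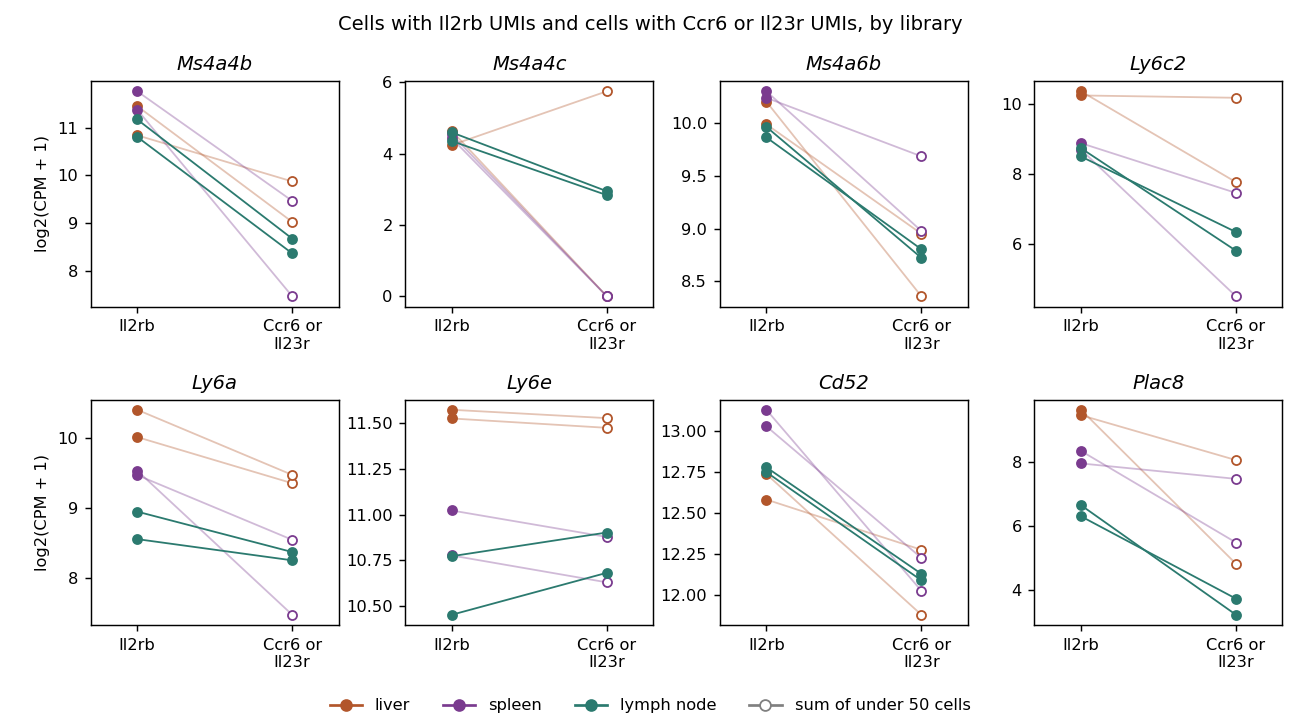
Level of each gene on a log2(CPM + 1) axis in cells with Il2rb UMIs (left) and in cells with Ccr6 or Il23r UMIs (right), 1 line for each of the 6 libraries; open points are sums of under 50 cells. In the 2 lymph node libraries 7 of the 8 genes are lower on the right, and Ly6e is higher (1913 and 1643 against 1749 and 1402 CPM).

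The 8 genes were next followed in contrasts that took no part in their choice: within each library, cells with UMIs of a marker gene were set against the cells without, with the library as a block and the marker genes left out. Ifit1 and Ifit3 are classic interferon-induced genes, and 305 to 528 cells in a library (10.7% to 18.8%) had UMIs of either. Of 9919 genes, 2.32% were called (1.98% higher), with a median log2 fold of -0.00, and all 38 tested genes of an interferon list rose (median 1.17), led by Rsad2 (4.25, SE 0.149, adjusted p = 1.61e-38). Of the 8 members, 3 rose, with a median log2 fold of 0.46. Cells with Ifit UMIs also held more UMIs (medians of 1625 to 3942 against 1453 to 3526), and 0.225% to 4.92% of them had UMIs of B cell, myeloid or CD8 markers, against 1.03% to 5.11% of the others.

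Ms4a4c, the scarce MS4A member, rose the most. Cells with Ifit UMIs had 26.4 and 32.4 CPM in liver, 30.3 and 21.8 CPM in spleen, and 49.0 and 36.9 CPM in lymph node, whereas the other cells had 14.5 to 21.3 CPM. The groups did not overlap over the 6 libraries (log2 fold 0.87, SE 0.151, adjusted p = 1.91e-05, edgeR quasi-likelihood test; higher in 6 of 6 libraries). Its family member Ms4a6d also rose (0.81, SE 0.121, adjusted p = 5.41e-07), and Tmem176a (-0.35, adjusted p = 0.00177) and Tmem176b (-0.25, adjusted p = 0.0457), MS4A relatives that are high in type 17 cells, fell.

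Ly6a rose in 6 of 6 libraries. It went from 963 to 1326 and from 1249 to 1812 CPM in liver, from 676 to 882 and from 615 to 923 CPM in spleen, and from 462 to 851 and from 391 to 682 CPM in lymph node (log2 fold 0.60, SE 0.0652, adjusted p = 0.00214). Ly6e rose by little, 0.11 (SE 0.0235, adjusted p = 0.00111, higher in 6 of 6 libraries), and lost its call with no filter on low counts (0.07, adjusted p = 0.285) and in cells with Il2rb UMIs alone (0.10, adjusted p = 0.446). Ly6c1 rose by 0.39 (SE 0.0784, adjusted p = 0.000343), and Bst2, which codes for the GPI-anchored antiviral protein tetherin, by 1.08 (adjusted p = 0.0176). Each was the only one called of its list, of 5 other Ly6 family genes (median 0.01) and of 10 other GPI-anchored proteins (median -0.02).

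Ms4a4b (log2 fold 0.55, SE 0.118, adjusted p = 0.145), Ms4a6b (0.44, SE 0.0808, adjusted p = 0.0844) and Plac8 (0.49, SE 0.175, adjusted p = 0.488) were higher in 6 of 6 libraries each and did not pass this test of 1 common fold. In cells with Il2rb UMIs alone they did, at 0.41 (adjusted p = 4.47e-22), 0.31 (adjusted p = 1.73e-09) and 0.35 (adjusted p = 9.76e-08). DESeq2 on all cells called Ms4a4b (0.58, adjusted p = 0.000171) and Ms4a6b (0.46, adjusted p = 5.66e-10), but not Plac8 (0.80, adjusted p = 0.238). Ly6c2 (0.17, adjusted p = 0.296) and Cd52 (0.04, adjusted p = 0.58) did not pass, though Ly6c2 was called without lymph node replicate 2 (0.12, adjusted p = 0.0275, edgeR).

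**Figure D3:**
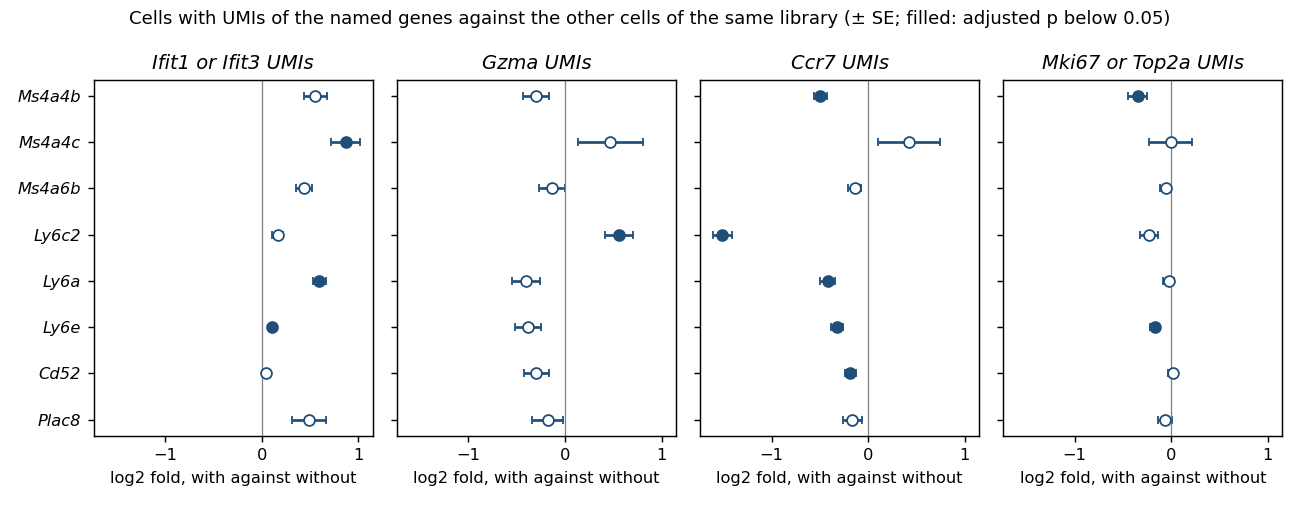
Log2 fold (horizontal axis, ± SE) of each gene between cells with and cells without UMIs of the genes that head each panel, within library, over 6 libraries; filled points have an adjusted p below 0.05 (edgeR). Ms4a4c is at 0.87 in the Ifit panel and Ly6c2 at -1.51 in the Ccr7 panel.

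Whether the Ifit difference was the same in the 3 organs was tested by the interaction of the marker with organ, for which 0.413% of 9919 genes (41) were called. Of the 8 members 4 were among them. Plac8 went from 53.1 to 156 and from 52.2 to 189 CPM in the lymph node libraries, but from 643 to 871 and from 742 to 945 CPM in liver and from 317 to 343 and from 241 to 328 CPM in spleen. Its log2 fold was 1.73 (SE 0.149) in lymph node, 0.41 (SE 0.0442) in liver and 0.29 (SE 0.0839) in spleen (adjusted p = 1.83e-12, edgeR quasi-likelihood test). Even in cells with Ifit UMIs, the lymph node level of Plac8 stayed under that of every spleen and liver library.

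Ms4a4b rose from 1212 to 2373 and from 1566 to 2965 CPM in lymph node, a log2 fold of 0.98 (SE 0.0425), against 0.37 (SE 0.0338) in liver and 0.40 (SE 0.0366) in spleen (adjusted p = 4.74e-22). Ms4a6b had 0.74 (SE 0.0538) in lymph node against 0.33 in liver and 0.32 in spleen (adjusted p = 1.43e-06). Ly6a had 0.88 (SE 0.0668) against 0.52 and 0.50 (adjusted p = 0.00188). In each of the 4 genes the lymph node fold was the largest of the 3 organs. DESeq2 called 4 genes in all, and Ms4a6b (adjusted p = 0.82) and Ly6a (adjusted p = 1) were not among them.

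The mix of cells moved with this result. In lymph node, cells with UMIs of Ccr6, Il23r, Tmem176a or Tmem176b made up 32.8% and 26.2% of cells with Ifit UMIs and 37.2% and 38.9% of the others, while the shares were 6.80% and 4.72% against 7.16% and 5.84% in spleen and 30.2% and 28.4% against 27.4% and 28.8% in liver. In liver only 0.428% and 0.419% of cells had Ccr6 or Il23r UMIs, so there the set was mostly cells with Tmem176a or Tmem176b UMIs. Tmem176b UMIs were in 20.5% and 20.6% of liver cells with Il2rb UMIs. Without all cells with UMIs of any of the 4 genes, Plac8 still differed between organs (1.65 in lymph node, 0.42 in liver and 0.24 in spleen, adjusted p = 8.42e-08), and so did Ms4a4b (0.74, 0.39 and 0.40, adjusted p = 4.62e-05). Ms4a6b (0.62, 0.38 and 0.32, adjusted p = 0.229) and Ly6a (0.81, 0.55 and 0.50, adjusted p = 0.606) did not pass, with the lymph node fold still the highest of the 3. In cells with Il2rb UMIs alone none of the 4 passed: the lymph node fold was 1.10 (SE 0.387) for Plac8 (adjusted p = 0.907), 0.64 (SE 0.0879) for Ms4a4b (adjusted p = 0.34), 0.58 (SE 0.126) for Ms4a6b (adjusted p = 0.757) and 1.11 (SE 0.173) for Ly6a (adjusted p = 0.256), each above the liver and spleen folds. Only 45 and 41 such lymph node cells had Ifit UMIs, and Plac8 had 47 and 36 UMIs in all lymph node cells with Il2rb UMIs. A lost call there can thus reflect few cells. Leaving out each library in turn kept the calls of Plac8, Ms4a4b and Ms4a6b, and that of Ly6a was lost without lymph node replicate 1. The Ly6a folds were then 0.79 in lymph node, 0.52 in liver and 0.49 in spleen. With at least 2 UMIs of the marker genes the first 3 were called as well, and Ly6a was not (1.13 in lymph node, 0.91 in liver and 0.76 in spleen, adjusted p = 0.635). Ly6c2, not called with all libraries (0.45, 0.13 and 0.07, adjusted p = 0.313), was called with at least 2 UMIs (adjusted p = 0.0128) and without lymph node replicate 1 (adjusted p = 0.0165).

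**Figure D4:**
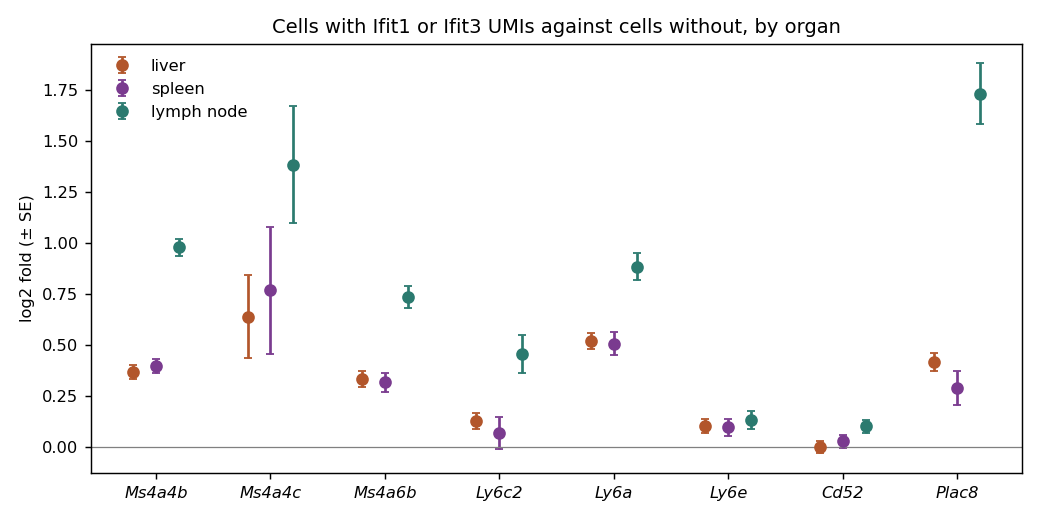
Log2 fold (vertical axis, ± SE) between cells with and cells without Ifit1 or Ifit3 UMIs, fitted for each organ from its 2 libraries. Plac8 reaches 1.73 in lymph node against 0.41 in liver and 0.29 in spleen, and Ms4a4b 0.98 against 0.37 and 0.40.

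Ccr7 is the receptor that leads naive and recently emigrated T cells into lymph nodes, and 29 to 106 cells in a library had its UMIs. Of 9771 genes 8.55% were called (median log2 fold -0.06), and of the 8 members 5 fell (median -0.25). Ly6c2 fell by far the most. It had 475 and 592 CPM in cells with Ccr7 UMIs of liver, 163 and 110.5 CPM in spleen, and 75.3 and 79.5 CPM in lymph node. The other cells had 1207 and 1330.2 CPM, 405 and 375 CPM, and 287 and 244 CPM. Within each organ the groups did not overlap, and the log2 fold was -1.51 (SE 0.0995, adjusted p = 1.63e-48, edgeR quasi-likelihood test; lower in 6 of 6 libraries).

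Ms4a4b fell by 0.50 on the log2 scale (SE 0.0645, adjusted p = 6.28e-12) and Ly6a by 0.42 (SE 0.0781, adjusted p = 4.26e-06), both in 6 of 6 libraries. Ly6e fell by 0.32 (adjusted p = 1.26e-05, 5 of 6 libraries) and Cd52 by 0.18 (adjusted p = 0.0152, 5 of 6 libraries). The call of Cd52 was lost with DESeq2 (-0.12, adjusted p = 0.507), in cells with Il2rb UMIs alone (-0.24, adjusted p = 0.0547) and, with folds of -0.17 to -0.14, without liver replicate 2 (0.083), spleen replicate 1 (0.148), spleen replicate 2 (0.169) or lymph node replicate 2 (0.122). Ly6a also lost its call in cells with Il2rb UMIs (-0.35, adjusted p = 0.0752). Plac8 had a log2 fold of -0.16 (adjusted p = 0.437) and Ms4a6b one of -0.14 (adjusted p = 0.26).

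Of 12 other GPI-anchored proteins tested in this contrast, 4 fell and 1, Izumo1r (0.37, adjusted p = 0.0116, named here after its value was seen), rose, where 8.55% of all genes were called. Gpc1 (-2.28, adjusted p = 0.0165), Cd160 (-1.44, adjusted p = 6.57e-28), Art2b (-1.22, adjusted p = 0.000205) and Cd48 (-0.56, adjusted p = 1.09e-07) fell in cells with Ccr7 UMIs. Ms4a1, which codes for CD20 of B cells, rose by 4.23 (adjusted p = 1.38e-06) and Ly6d, also of B cells, by 3.06 (adjusted p = 0.000697), with all their UMIs in cells with Ccr7 UMIs coming from the liver libraries. Cells with UMIs of B cell, myeloid or CD8 markers were at most 10.3% of those with Ccr7 UMIs and 0.975% to 4.96% of the others, and median UMIs were 1736 to 6156 against 1467 to 3571. Without such cells the fold of Ly6c2 was -1.48 (adjusted p = 4.91e-44), and the same 5 members were called.

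Gzma codes for granzyme A of cytotoxic granules. Its UMIs marked 133 and 131 cells from liver, 35 and 33 from spleen, and 11 and 12 from lymph node, and 1.96% of 9678 genes were called, about a median of -0.12. Of the 8 members, 1 was called. Ly6c2 had 1409 and 1769 CPM in cells with Gzma UMIs of liver against 1174 and 1290.4 CPM in the others, and 1240.5 and 680.3 CPM in spleen against 378 and 354 CPM. In lymph node it had 148 CPM against 276 in replicate 1 and 531 against 236 in replicate 2. The log2 fold was 0.56 (SE 0.142, adjusted p = 0.00736, higher in 5 of 6 libraries), and the call was lost with DESeq2 (0.70, adjusted p = 0.236), without spleen replicate 1 (0.36, adjusted p = 0.435) and in cells with Il2rb UMIs alone (0.40, adjusted p = 0.104). Cells with UMIs of B cell, myeloid or CD8 markers were 0% to 18.2% of those with Gzma UMIs. Of the others they were 0.953% to 5.08%. Without such cells the fold of Ly6c2 was 0.63 (adjusted p = 0.000579, edgeR). Lymph node replicate 1, with 9 cells with Gzma UMIs left, did not enter this fit. With at least 2 UMIs of Gzma, Ly6a was also called lower (-0.92, adjusted p = 0.00123) and Ms4a4c higher (1.73, adjusted p = 0.0167, edgeR). This fit rested on 33 and 47 cells of liver and 12 and 15 of spleen. It held no lymph node library, where only 3 and 1 cells had 2 UMIs. The folds of Ly6a and Ms4a4c in the main fit were -0.41 (adjusted p = 0.148) and 0.47 (adjusted p = 0.679). Ms4a4c had only 8 and 17 UMIs in the liver cells with Gzma UMIs of the main fit, and was higher in 2 libraries and lower in 2.

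Mki67 and Top2a mark cycling cells, 90 to 262 in a library, and 26.2% of 9861 genes were called between them and the other cells (median -0.07). Of the 8 members, 2 fell. Ms4a4b fell by 0.35 (SE 0.0971, adjusted p = 0.0256) and Ly6e by 0.17 (SE 0.0498, adjusted p = 0.00422), both in 6 of 6 libraries. In cells with Il2rb UMIs alone the fold of Ms4a4b was -0.60 (adjusted p = 7.48e-14). In lymph node, 18.9% and 20.0% of the cycling cells had Il2rb UMIs, against 11.5% and 11.1% of the others. Cells with UMIs of B cell, myeloid or CD8 markers were 0.667% to 7.78% of the cycling cells and 0.958% to 5.09% of the others. Without such cells the fold was -0.32 for Ms4a4b (adjusted p = 0.0225) and -0.17 for Ly6e (adjusted p = 0.00761, edgeR). The share of members called, 2 of 8, is near that of all genes, and the call of Ly6e was lost without lymph node replicate 1 (-0.14, adjusted p = 0.0655). Cd52 (0.02, adjusted p = 0.849), Ly6a (-0.03, adjusted p = 0.785) and Plac8 (-0.07, adjusted p = 0.574) did not pass. Neither did Ly6c2 (-0.23, adjusted p = 0.0808), which was called lower with no filter on low counts (adjusted p = 0.000911), with at least 2 UMIs of the marker genes (2.07e-05), and without liver replicate 1, spleen replicate 1, lymph node replicate 1 or lymph node replicate 2 (adjusted p = 0.00146 to 0.0389).

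Other genes of the same families and of the anchor itself were tested between organs. Of 17 further MS4A genes 4 passed the filter on low counts: Tmem176b was higher in liver than in spleen (log2 fold 2.10, adjusted p = 8.09e-13) and lower in spleen than in lymph node (-3.00, adjusted p = 1.58e-17), and Tmem176a went the same way (1.70 and -3.08). Ms4a6d was higher in liver than in lymph node (1.16, adjusted p = 0.018, edgeR), while Tmem176a and Tmem176b were called lower. Ms4a6c, at 21.1 to 32.8 CPM, was not called between any pair of organs, and Ms4a4d, at 0.991 to 3.36 CPM, was under the filter and not tested. Of 34 further Ly6 family genes 4 passed the filter, and Ly6g5b (0.62 between liver and spleen, -1.08 between spleen and lymph node) and Ly6k (-1.78 and 1.83) were called beside Ly6c1.

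Of 28 other GPI-anchored proteins 10 were tested, of which 5 were higher and 3 lower in liver than in lymph node, where 37.6% of all genes were called. Art2b, a T cell ADP-ribosyltransferase, had a log2 fold of 3.27 (adjusted p = 1.12e-10), Cd160, a receptor of cytotoxic cells, one of 1.65 (adjusted p = 1.4e-12), and Gpc1, a proteoglycan, one of 2.27 (adjusted p = 1.46e-05). All were among those higher in liver than in lymph node. Between liver and spleen, where 25.7% of all genes were called, 2 of the 10 were higher in liver and 3 lower (median log2 fold -0.20). Of 28 genes that build or attach the GPI anchor 27 were tested. In liver 4 were lower than in lymph node, where 37.6% of all genes were called, and 3 were higher and 8 lower than in spleen, where 25.7% were (median log2 fold -0.09). Dpm1, a subunit of the enzyme that supplies mannose to the anchor, was lower in liver than in lymph node (-1.02, adjusted p = 2.53e-08) and than in spleen (-0.77, adjusted p = 1.82e-05).

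Of 20 tetraspanins, another family of multi-pass surface proteins, 13 were tested: 1 was higher and 4 lower in liver than in lymph node, a share near the 37.6% of all genes, with Cd9 (-1.68, adjusted p = 1.33e-10) and Cd81 (-0.96, adjusted p = 3.06e-07) among the latter. Of 39 interferon genes, 37 were tested between organs. Of these, 22 were higher and 3 lower in liver than in lymph node (median 0.54, against 0.01 for all genes). Against spleen, where 25.7% of all genes were called, 13 were higher and 2 lower in liver. Gbp3 (1.75, adjusted p = 3.51e-05) and Parp14 (1.65, adjusted p = 5.08e-11) were higher in liver than in lymph node, and Oasl2 was lower (-2.18, adjusted p = 3.74e-10).

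The genes most alike to each member were sought over 12 profiles, the 6 libraries in each of the 2 sets of cells, among 1766 genes of at least 100 CPM on average. Pearson's r of log2(CPM + 1) was 0.95 between Ms4a4b and Pglyrp1, 0.96 between Plac8 and H2-Q7, 0.94 between Ly6c2 and Ctsw, 0.97 between Ly6a and Ccnd3, and 0.97 between Ly6e and Eef1a1. Ms4a6b and Cd52 shared AW112010 as the closest gene (0.96 and 0.94), and Ms4a4c was closest to Rnf138 (0.96). Among the members, Ms4a6b and Cd52 were the most alike (r = 0.88) and Ms4a6b and Ly6e the least (r = -0.12). The profiles share libraries, and 4 of them are sums of 11 to 24 cells, so these values are a description.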

How the data were processed

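The authors deposited 1 matrix of UMI counts per library (raw whole-number counts per gene and barcode, mm10), made with Cell Ranger 3.1.0 per the submitters' processing notes. From these counts, 55 barcodes were removed (fewer than 300 genes, more than 4000, or mitochondrial UMIs above 15%), and 188 ribosomal and haemoglobin genes (24.0% to 35.0% of UMIs) were not counted. Levels are UMIs per 1000000 counted UMIs (CPM) of a library or set of cells. UMIs were summed per library and tested with edgeR 4.0.16 (filterByExpr with a minimum count of 10, TMM, robust quasi-likelihood F test, Benjamini-Hochberg over all genes), in R 4.3.3; DESeq2 1.42.0 was an alternative. Marker contrasts used 2 sums per library with the library as a block, each of at least 10 cells. P-values rest on the spread between library sums, not between cells. edgeR moderates the spread of each gene with one shared over all genes tested. With 2 libraries in an organ, the p-values and SEs of the Ifit by organ fit lean largely on that shared spread. No doublets were removed; an alternative left out the 2% of cells with the highest Scrublet score (scanpy 1.11.5). The fits were tested on simulated data in which 200 genes were changed. Gene positions and transcripts came from GENCODE vM21, promoter windows from RefSeq. The members and lists were chosen with earlier results of these data known. Named were all members, their closest family genes, at most 4 called genes of each list and contrast, and the gene most alike to each member (the rule allowed 2). The Ifit by organ alternatives other than DESeq2, and the contrast without type 17 gene UMIs, were chosen after seeing the data. Type 17 gene UMIs here are those of Ccr6, Il23r, Tmem176a or Tmem176b.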

Additional observations from a re-analysis of the deposited data

Results flagged for a closer look

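The difference between cells with and cells without Ifit1 or Ifit3 UMIs was not the same in the 3 organs for 4 of the members, by the edgeR quasi-likelihood test of the interaction with 2 libraries in each organ, adjusted over 9919 genes. The adjusted p was 4.74e-22 for Ms4a4b, 1.83e-12 for Plac8, 1.43e-06 for Ms4a6b and 0.00188 for Ly6a, and each had its largest fold in lymph node. For Ms4a6b and Ly6a the DESeq2 likelihood ratio test did not pass. The share of cells with UMIs of Ccr6, Il23r, Tmem176a or Tmem176b differed between cells with and without Ifit UMIs in lymph node more than in spleen. In liver this set was mostly cells with Tmem176a or Tmem176b UMIs. Without the set the calls of Plac8 and Ms4a4b were kept and those of Ms4a6b (log2 folds of 0.62 in lymph node, 0.38 in liver and 0.32 in spleen, adjusted p = 0.229) and Ly6a (0.81, 0.55 and 0.50, adjusted p = 0.606) lost. That of Ly6a was also lost without lymph node replicate 1 (log2 folds of 0.79 in lymph node, 0.52 in liver and 0.49 in spleen). In cells with Il2rb UMIs alone none of the 4 passed, with the lymph node fold still above the other organs (adjusted p = 0.907 for Plac8, 0.34 for Ms4a4b, 0.757 for Ms4a6b and 0.256 for Ly6a, edgeR). Only 45 and 41 such lymph node cells had Ifit UMIs. The part of the cell mix in the difference was not tested further. With 2 libraries in an organ, the edgeR p-values lean largely on a spread shared over all genes tested.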

How the results depend on the processing

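With 2 libraries in an organ, each organ value rests on few samples, and the scarcest member, Ms4a4c, on 61 to 143 UMIs in a library. No result changed direction while called. Between organs, DESeq2 called 1420 genes for liver against spleen (2614 with edgeR) and 1123 for spleen against lymph node (1864). Leaving out each library gave 1369 (without liver replicate 1; 1371 without spleen replicate 2) to 2410 genes for liver against spleen, 2409 (without lymph node replicate 2) to 4031 for liver against lymph node (3828) and 1025 (without lymph node replicate 2) to 1930 for spleen against lymph node. With the replicate block, in which the sample number enters the fit, 3034, 4141 and 2113 genes were called, and the log2 fold of Ms4a4b was -0.42 between liver and spleen and 0.50 between liver and lymph node. The block called 6 members in each comparison of organs, where 5, 5 and 6 were called without it. Nothing is read from these counts of members. Deviations of same-numbered samples correlated at 0.179, 0.122 and 0.111 over 5859 genes, but nothing in the labels says that a number marks a shared mouse or day. For cells with Ifit UMIs, 230 genes were called, 151 with DESeq2 and 153 within cells with Il2rb UMIs, and 183 to 218 leaving out each library; 3 members were called, 5 with DESeq2, with at least 2 UMIs of the marker or within cells with Il2rb UMIs, 6 without cells with type 17 gene UMIs, and 3 to 5 (5 without lymph node replicate 2) leaving out each library. For Gzma, 190 genes were called, 83 with DESeq2, 116 with at least 2 UMIs, 102 within cells with Il2rb UMIs and 121 (without spleen replicate 1) to 188 leaving out each library; 1 member was called, 3 with at least 2 UMIs, 0 with DESeq2 (2 at an unadjusted p below 0.05), within cells with Il2rb UMIs (1 with edgeR, unadjusted) or without spleen replicate 1 (5 with edgeR, unadjusted), and at most 1 leaving out each library. For Ccr7, 835 genes were called, 458 with DESeq2, 284 within cells with Il2rb UMIs and 563 to 776 leaving out each library; 5 members were called, 3 within cells with Il2rb UMIs. The Ifit difference between organs held for 41 genes, 4 with DESeq2, 27 within cells with Il2rb UMIs, 8 without cells with type 17 gene UMIs and 28 to 52 leaving out each library. The cause of these shifts was not tested; within cells with Il2rb UMIs fewer cells and genes enter.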
